A study of Mus musculus with 6 samples.

Results

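The matrix metalloproteases (MMPs), the ADAM and ADAMTS proteases and the tissue inhibitors of metalloproteases (TIMPs) were followed in mouse mammary tumour grafts whose grafted cells were knocked out or wild type for AXL. Members were the protein-coding genes of the deposited table named Mmp, Timp, Adam or Adamts with a number, and at most 1 further letter. This gave 79 genes among 39179 gene identifiers: 23 MMPs, 4 TIMPs, 33 ADAMs and 19 ADAMTS genes. The rule used names only, but it was chosen with earlier results of these data known. Total RNA was sequenced from 3 grafts labelled AXL KO (genotype AXL-/-) and 3 labelled WT (AXL+/+), all of FVB strain. The tissue is called MMTV-Neu, a model in which the MMTV promoter drives the Neu (ErbB2) oncogene in mammary epithelium, and no treatment, age or time is given. The comparison asks which transcripts differ with AXL, a receptor tyrosine kinase, in the grafted cells. Whether replicate grafts stem from separate animals or cultures, and whether AXL KO and WT cells stem from a shared tumour line, is not in the labels. The p-values therefore measure only the spread between these libraries, which may be technical.

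MMPs and ADAMTS proteases are zinc enzymes that cut extracellular matrix, and ADAMs sit in the cell membrane and release the outer parts of growth factors and receptors. Most are made as inactive precursors, and TIMPs block the active enzymes by binding them. In mammary tumours fibroblasts, vessel cells and leukocytes as well as tumour cells make these proteases. A graft holds host cells beside the grafted ones, so fewer cells of a type and less RNA per cell cannot be told apart in these libraries.

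Library counts in genes ran from 28808499 to 32491807 in AXL KO and from 26541009 to 29977133 in WT. Axl, the targeted gene, averaged 60.1 ± 13.1 CPM (counts scaled to a common library size; SD, n = 3 here and below) in the libraries labelled AXL KO and 60.4 ± 8.95 CPM in those labelled WT, so its counts did not check the genotype. Erbb2 averaged 9207 CPM in AXL KO and 7193 CPM in WT, with Krt8 and Epcam also abundant, while the basal keratin gene Krt14 had a mean of 0.0103 CPM in AXL KO and was at 0 in WT. AXL KO replicate 2 stood apart for many of the protease genes, as described below, and results that rest on it are given with and without it. The median log2 fold change of a chromosome's tested genes was not 0 everywhere: on chromosomes that hold tested members it ran from -0.29 on chromosome 15 to 0.28 on chromosome 4.

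The summed level of all members was 1029, 1288 and 1061 CPM in the AXL KO libraries, against 1429, 1457 and 1380 CPM in the WT libraries, without overlap. Counts sufficed to test 46 members, and of these 18 fell and 1 rose in AXL KO (quasi-likelihood test of edgeR, adjusted p under 0.05 by Benjamini-Hochberg over all 14850 tested genes). Over all tested genes 18.3% fell and 19.1% rose. The median log2 fold change of tested members was -0.51, against 0.0003 over all tested genes, and 39 of 46 members had a negative value, against 50% of all tested genes. AXL KO and WT values did not overlap, with AXL KO lower, for 18 members, where 25.2% of all tested genes showed this, and with AXL KO higher for 1, where 26.9% did. At least 2-fold lower and called were 7 members, against 4.82% of all tested genes, and 0 were at least 2-fold higher, against 5.14%. At a stricter adjusted p of 0.01, 9 members were called lower, against 9.86% of all tested genes. The genes that fell were 5 of 16 tested MMPs, 1 of 3 TIMPs, 2 of 12 ADAMs and 10 of 15 ADAMTS genes. In the plot of single libraries the AXL KO points lie left of the WT points for most genes, and the AXL KO replicate 2 points often lie between.

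**Figure D1:**
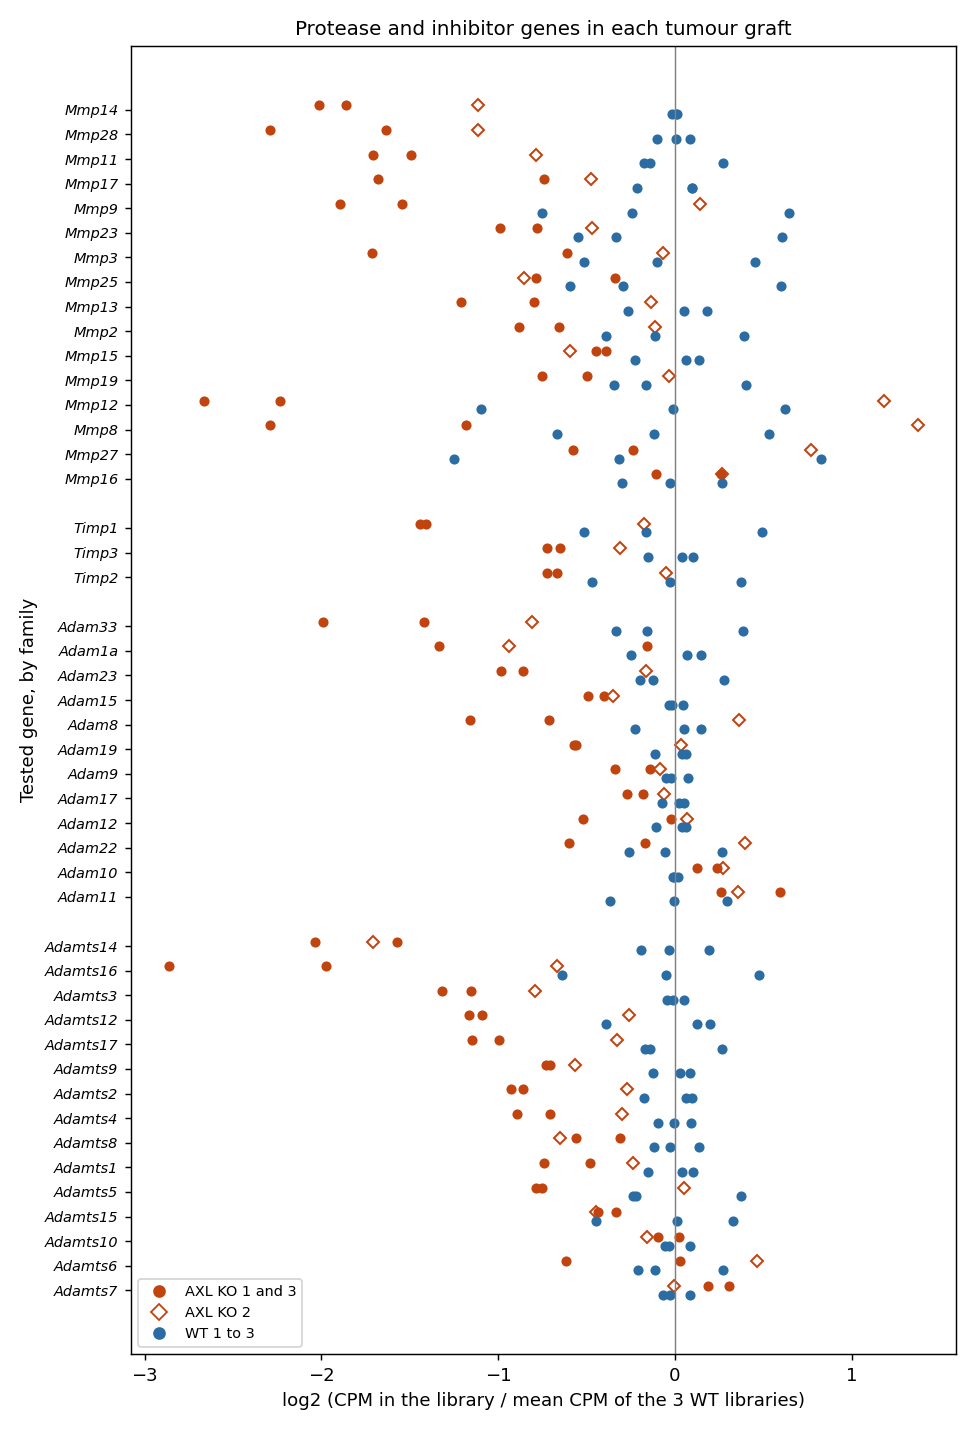
Log2 ratio of the CPM in each library to the mean CPM of the 3 WT libraries (x axis) for the 46 tested members (y axis, by family). Filled orange points are AXL KO replicates 1 and 3, open diamonds AXL KO replicate 2 and blue points the WT libraries; Mmp14, Mmp28, Mmp11, Adamts14 and Adamts3 show AXL KO libraries far below WT, while for Mmp12 and Mmp8 AXL KO replicate 2 lies above every WT library.

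The promoter sequences of 4 members show how their start regions differ: those of Mmp14 and Adamts3, which fell in AXL KO, and those of Mmp3 and Mmp13, which lie in a protease cluster on chromosome 9 and were not called. Each line is the 250 bases before the RefSeq start (GRCm38.p6), 5′ to 3′ on the gene's strand. Capitals mark the GC box GGGCGG and the AP-1 motif TGANTCA on either strand, and the TATA box TATAAA on the gene's strand.
Mmp14 (chr14:54431348-54431597, + strand): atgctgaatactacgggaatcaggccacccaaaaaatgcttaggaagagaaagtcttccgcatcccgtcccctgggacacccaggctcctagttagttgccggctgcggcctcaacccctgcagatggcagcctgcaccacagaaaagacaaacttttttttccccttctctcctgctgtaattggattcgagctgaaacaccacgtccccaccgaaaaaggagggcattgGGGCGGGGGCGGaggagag
Adamts3 (chr5:89883335-89883584, − strand): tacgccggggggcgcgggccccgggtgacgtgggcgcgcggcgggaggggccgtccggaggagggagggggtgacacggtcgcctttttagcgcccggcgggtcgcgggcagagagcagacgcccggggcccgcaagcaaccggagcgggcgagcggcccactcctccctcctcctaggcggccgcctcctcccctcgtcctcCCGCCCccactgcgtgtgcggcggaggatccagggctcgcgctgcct
Mmp3 (chr9:7445572-7445821, + strand): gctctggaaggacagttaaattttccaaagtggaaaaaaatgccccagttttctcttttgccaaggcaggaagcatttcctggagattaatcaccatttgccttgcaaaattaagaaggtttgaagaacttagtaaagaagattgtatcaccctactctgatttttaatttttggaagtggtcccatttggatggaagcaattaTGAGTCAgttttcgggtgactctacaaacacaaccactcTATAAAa
Mmp13 (chr9:7272264-7272513, + strand): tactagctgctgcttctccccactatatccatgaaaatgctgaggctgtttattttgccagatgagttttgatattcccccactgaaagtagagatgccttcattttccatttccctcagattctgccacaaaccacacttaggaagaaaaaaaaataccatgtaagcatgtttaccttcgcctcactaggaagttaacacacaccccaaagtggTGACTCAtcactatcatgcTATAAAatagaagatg

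Mmp14 holds GC boxes that begin 19 and 13 bases before the start, and Adamts3 holds 1 that begins 47 bases before it. Mmp3 has an AP-1 motif 46 and a TATA box 7 bases before the start, and Mmp13 has them at 35 and 16 bases. RefSeq promoters matched 49 of the 79 members, some with several starts, which gave 54 promoters. The AP-1 motif was in 8 of 21 MMP promoters (38.1%), 4 of 19 ADAM promoters, 0 of 10 ADAMTS and 0 of 4 TIMP promoters, and in 6.75% of all 32851 mouse promoters in the table. The MMP promoters with it were those of Mmp1a, Mmp1b, Mmp3, Mmp7, Mmp10, Mmp12, Mmp13 and Mmp20, all in the chromosome 9 cluster. Of these genes only Mmp3, Mmp12 and Mmp13 were tested. The ADAM promoters with it were those of Adam19 and of Adam20, Adam25 and Adam29, of which the last 3 had no counts. Of the promoters of called members 0 of 14 held the AP-1 motif, and of tested members that were not called 4 of 19 did (21.1%). These 4 were the promoters of Adam19, Mmp3, Mmp12 and Mmp13, all of which were called lower without AXL KO replicate 2, so this contrast rests on that library. Over all genes the shares were 5.58% of 2545 promoters of genes called lower and 4.49% of 8056 promoters of genes not called. GC boxes were in 12 of 14 promoters of called members (85.7%) and in 5 of 19 of those not called (26.3%). Over all genes these shares were 58.5% in genes called lower and 56.5% in genes not called. The 19 promoters of members not called came from 15 genes, since Adam19, Mmp12 and Mmp23 had several starts, none with a GC box. Promoters were matched for 29 of 46 tested members, and the called Adam33, Adamts4, Adamts8, Adamts16 and Mmp17 had none. Without AXL KO replicate 2 the call of Adam10, whose promoter holds GC boxes, ended. Genes then newly called lower included Adam19, Adam23, Mmp3, Mmp8, Mmp12 and Mmp13, whose promoters hold no GC box. Adam8, Timp1 and Timp2, whose promoters hold it, were newly called as well. The GC box contrast thus also rests in part on that library. The TATA box was in 8 of 21 MMP promoters (38.1%) and in 7.59% of all promoters. All of these MMP promoters except that of Mmp21 were also from the chromosome 9 cluster. The motif PEA3, AGGAAG on either strand, was in 20 of 54 member promoters (37.0%) and 29.5% of all. These matches describe letters in a window, and binding was not measured. Of the 7 AP-1 factor genes listed, 6 were tested and 1 fell, near the share of 18.3% of all tested genes. This was Fos, which averaged 18.3 ± 5.18 CPM in AXL KO and 34.7 ± 5.17 CPM in WT (log2 fold change -0.92, edgeR adjusted p = 0.00753). A link between it and the member promoters was not tested. Jun, with 71.6 ± 3.64 CPM in AXL KO and 60.9 ± 4.17 CPM in WT, was not called (edgeR adjusted p = 0.0512).

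Of the 6 tested membrane-anchored MMPs 3 fell, among them Mmp14, with the largest decrease by value of any MMP over all libraries. Mmp14 encodes MT1-MMP, a collagenase of the cell surface that also activates the MMP2 precursor (chromosome 14, 54431612 to 54445364). It had 846, 1624 and 818 counts in AXL KO and 2976, 3287 and 3076 counts in WT. All 3 AXL KO libraries lay below all WT libraries, with AXL KO replicate 2 the highest of them. Its mean was 35.7 ± 12.7 CPM in AXL KO and 109 ± 1.22 CPM in WT, 3.04-fold lower (log2 fold change -1.61 ± 0.20 SE, edgeR adjusted p = 0.000538). Mmp15, which encodes another transmembrane MMP (chromosome 8, 95352268 to 95375080), was the most abundant MMP transcript per length of exon in both groups and fell less. It averaged 106 ± 7.66 CPM in AXL KO and 148 ± 19.2 CPM in WT (log2 fold change -0.47 ± 0.11 SE, edgeR adjusted p = 0.00822), without overlap. Mmp17, whose protein is held to the membrane by a lipid anchor, was low, with 32, 44 and 18 counts in AXL KO and 55, 49 and 58 in WT, and its call was close to the threshold (log2 fold change -0.87, edgeR adjusted p = 0.045). That call ended with DESeq2 (adjusted p = 0.0517), with chromosome medians removed (edgeR adjusted p = 0.051) and when any library other than AXL KO replicate 2 was left out.

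The remaining 3 tested membrane MMPs were not called. Mmp16, also transmembrane, averaged 41.7 ± 5.86 CPM in AXL KO and 37.6 ± 7.37 CPM in WT (log2 fold change 0.15, edgeR adjusted p = 0.467). Its chromosome, 4, had a median of 0.28, and relative to that Mmp16 lay at -0.13. Mmp23 averaged 1.91 ± 0.351 CPM in AXL KO and 3.16 ± 1.45 CPM in WT, and its log2 fold change of -0.72 (edgeR adjusted p = 0.102) was called when chromosome medians were removed (adjusted p = 0.042). Mmp25, known from neutrophils, averaged 5.48 ± 1.12 CPM in AXL KO and 8.54 ± 3.90 CPM in WT. It became called without WT replicate 1 (log2 fold change -0.87, edgeR adjusted p = 0.0369). Mmp24 had 6 counts over all libraries and was not tested.

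Among the secreted MMPs, Mmp11 and Mmp28 fell. None of the 2 collagenases and 2 gelatinases tested was called by edgeR over all libraries, with 1 of the 4, Mmp13, at an unadjusted p under 0.05, and DESeq2 called Mmp2. Mmp11, stromelysin-3, a product of fibroblasts around tumours (chromosome 10, 75923222 to 75936496), had 55, 103 and 51 counts in AXL KO and 135, 199 and 139 in WT. The libraries did not overlap, and the gene was 2.40-fold lower in AXL KO (log2 fold change -1.27 ± 0.25 SE, edgeR adjusted p = 0.00499). Mmp28, epilysin (chromosome 11, 83440768 to 83463071), had 20, 52 and 34 counts in AXL KO and 88, 111 and 100 in WT. Here too every AXL KO library was below every WT library, and the gene was 3.01-fold lower (log2 fold change -1.59 ± 0.27 SE, edgeR adjusted p = 0.00225).

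The gelatinase gene Mmp2, mostly of stromal cells, had 741, 1448 and 936 counts in AXL KO and 1726, 1349 and 1061 in WT. The groups overlapped, and the log2 fold change of -0.51 had a 95% interval from -1.03 to 0.01 (edgeR adjusted p = 0.108). DESeq2 called it (adjusted p = 0.0466), as did the fit without AXL KO replicate 2, where it lay at -0.76 (edgeR adjusted p = 0.0192). Mmp9, the gelatinase of neutrophils and macrophages, averaged 1.54 ± 1.24 CPM in AXL KO and 2.69 ± 1.35 CPM in WT (log2 fold change -0.78, edgeR adjusted p = 0.274). Mmp19 averaged 5.12 ± 1.32 CPM in AXL KO and 6.74 ± 1.91 CPM in WT, with no call (edgeR adjusted p = 0.233).

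On chromosome 9, 10 MMP genes lie within 427 kb (7272514 to 7699585), and 5 of them were tested: Mmp13, Mmp12, Mmp3, Mmp8 and Mmp27. None was called over all libraries by edgeR, DESeq2 or limma-voom, with 1 (Mmp13) at an unadjusted p under 0.05 in edgeR, while outside this cluster 5 of 11 tested MMPs fell. Without AXL KO replicate 2, 4 of the 5 in the cluster and 7 of the 11 outside it were called lower, and the difference between the shares was not tested. Mmp12, macrophage elastase, had 154, 1881 and 123 counts in AXL KO and 326, 1186 and 730 in WT. Both extremes lay in AXL KO: replicate 2 was above every WT library, and replicates 1 and 3 were below every WT library. Its fold change, at -0.18 on the log2 scale, had a 95% interval from -2.13 to 1.77 (edgeR adjusted p = 0.887), so a change of either direction was within its error. Without AXL KO replicate 2 it was -2.44 (edgeR adjusted p = 0.00343). The neutrophil collagenase gene Mmp8, with 8, 54 and 4 counts in AXL KO and 11, 28 and 17 in WT, behaved likewise, at 0.13 over all libraries (edgeR adjusted p = 0.906) and -1.64 without AXL KO replicate 2 (edgeR adjusted p = 0.0373). Mmp3, stromelysin-1, averaged 5.63 ± 2.87 CPM in AXL KO and 8.83 ± 2.99 CPM in WT (log2 fold change -0.64, edgeR adjusted p = 0.207). Collagenase-3, from Mmp13, averaged 2.78 ± 1.07 CPM in AXL KO and 4.34 ± 0.67 CPM in WT. Its log2 fold change of -0.64 (edgeR adjusted p = 0.0891) was called with chromosome medians removed (-0.84, adjusted p = 0.0429), since chromosome 9 had a median of 0.20. Mmp27 averaged 0.624 ± 0.32 CPM in AXL KO and 0.58 ± 0.406 CPM in WT, with no call (edgeR adjusted p = 0.862).

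Of the inhibitors, Timp3 fell, and Timp1 and Timp2 lay lower on average with groups that overlapped. Timp3 (chromosome 10, 86300372 to 86349506) binds to the matrix and also inhibits ADAM17. It had 1000, 1528 and 1135 counts in AXL KO and 1631, 1889 and 1505 in WT. AXL KO replicate 2, the highest of its group at 47.2 CPM, stayed below the lowest WT library at 52.5 CPM, and the gene was 1.46-fold lower (log2 fold change -0.55 ± 0.12 SE, edgeR adjusted p = 0.00776). Chromosome 10 had a median of -0.20, and with chromosome medians removed Timp3 lay at -0.35 and was no longer called (edgeR adjusted p = 0.0576). Timp1, the secreted inhibitor most often induced in inflammation and tumours (chromosome X, 20870166 to 20874735), had 209, 577 and 230 counts in AXL KO and 768, 423 and 514 in WT. AXL KO replicates 1 and 3 were below every WT library, and replicate 2 was above WT replicate 2 after scaling. The log2 fold change was -0.87 ± 0.36 SE (edgeR adjusted p = 0.0886; with no filter, adjusted p = 0.0462), and -1.42 without AXL KO replicate 2 (edgeR adjusted p = 0.00399). Timp2 (chromosome 11, 118301069 to 118355740), which both inhibits MMPs and helps MT1-MMP to activate MMP2, had 1102, 2014 and 1237 counts in AXL KO and 2268, 1908 and 1338 in WT. It was not called over all libraries (log2 fold change -0.45 ± 0.23 SE, edgeR adjusted p = 0.154) and was called without AXL KO replicate 2 (-0.69, edgeR adjusted p = 0.0281). Timp4 had 9 counts over all libraries and was not tested.

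The summed TIMP level was 82.0, 127 and 85.5 CPM in AXL KO and 172, 140 and 117 CPM in WT, with AXL KO replicate 2 above WT replicate 3. The summed MMP level was 231, 334 and 240 CPM in AXL KO and 393, 443 and 408 CPM in WT, without overlap. These sums are a description and were not tested.

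**Figure D2:**
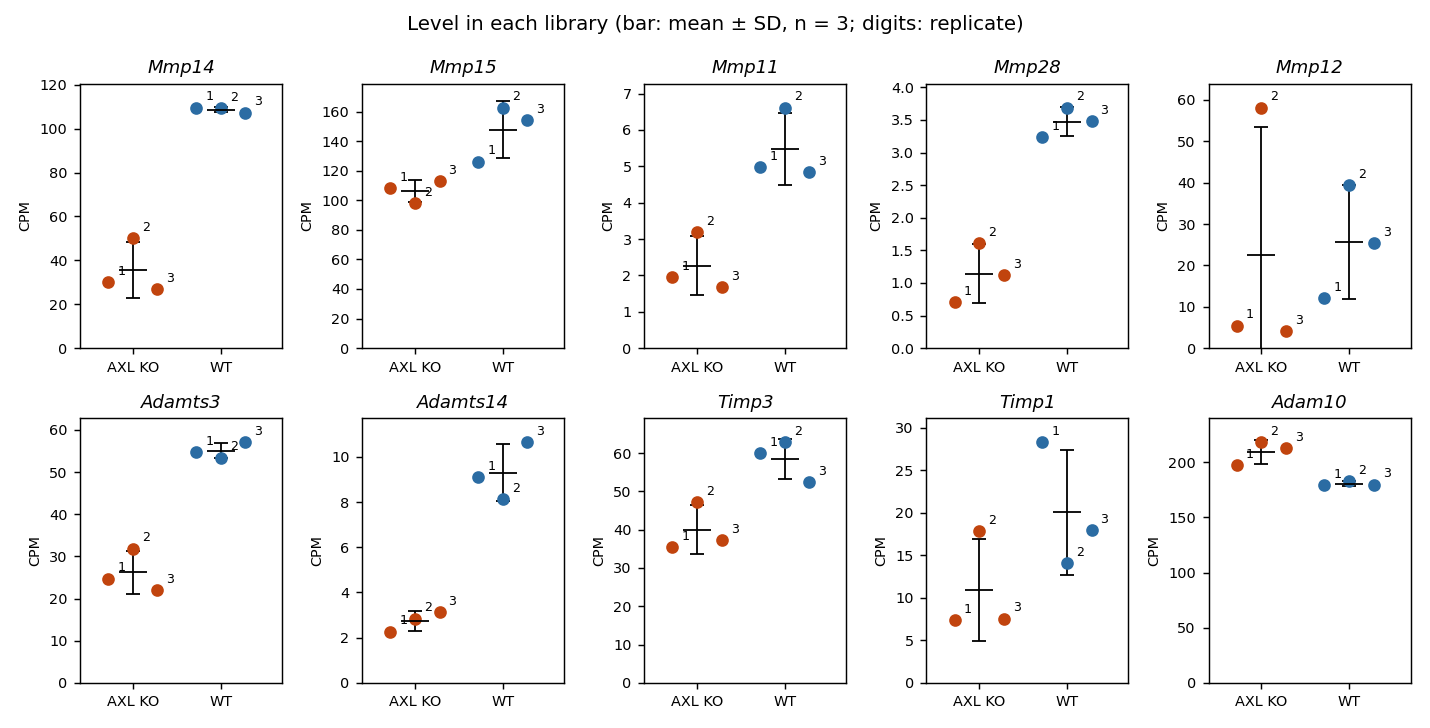
Level in CPM (y axis, from 0, a scale of its own in each panel) of 10 genes in the 3 AXL KO libraries (orange, left) and the 3 WT libraries (blue, right), with replicate numbers, means and SDs; for Mmp12 the lower whisker is clipped at 0. Mmp14, Adamts3 and Adamts14 show a gap between the groups, Mmp12 and Timp1 overlap through AXL KO replicate 2, and Adam10 lies slightly higher in AXL KO.

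The ADAMs had the largest summed CPM of the families, with 2 of 12 tested genes lower and 1 higher in AXL KO. These counts were not above the shares of all tested genes, of which 18.3% fell and 19.1% rose. The summed ADAM level was 547 ± 43.3 CPM in AXL KO and 575 ± 4.97 CPM in WT, and the median log2 fold change of the 12 tested ADAMs was -0.26. Adam10, the main sheddase of Notch, E-cadherin and the EGF-family ligand betacellulin (chromosome 9, 70678997 to 70780229), had 5568, 7055 and 6486 counts in AXL KO and 4869, 5503 and 5153 in WT. All AXL KO libraries lay above all WT libraries, at 209 ± 10.9 CPM in AXL KO and 181 ± 1.98 CPM in WT. This was the member that rose, by 0.21 ± 0.07 SE on the log2 scale (edgeR adjusted p = 0.0381). The median of chromosome 9 was 0.20, and with chromosome medians removed Adam10 lay at 0.015 (edgeR adjusted p = 0.894). The call also ended with upper-quartile scaling (adjusted p = 0.0575), without a filter (adjusted p = 0.0546), and without WT replicate 1, WT replicate 3, AXL KO replicate 2 or AXL KO replicate 3, where the edgeR adjusted p was at most 0.119.

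Adam17, the sheddase of TNF, TGF-alpha and amphiregulin (chromosome 12, 21323509 to 21373632), had 2828, 3758 and 3257 counts in AXL KO and 3124, 3769 and 3519 in WT. The groups overlapped, with a log2 fold change of -0.17 ± 0.08 SE, a 95% interval from -0.35 to 0.01 and an edgeR adjusted p of 0.131. Relative to the chromosome 12 median of -0.22 it lay at 0.050. Adam15, an ADAM that binds integrins (chromosome 3, 89338542 to 89349996), had 1333, 1579 and 1351 counts in AXL KO and 1747, 1831 and 1768 in WT. It fell 1.33-fold without overlap (log2 fold change -0.41 ± 0.07 SE, edgeR adjusted p = 0.00292). Adam33, a gene of mesenchymal cells, was near the limit of testing, with 5, 13 and 8 counts in AXL KO and 25, 19 and 16 in WT. It fell by 1.29 on the log2 scale (edgeR adjusted p = 0.0244), a call lost with DESeq2 (adjusted p = 0.0668) and without WT replicate 1 or AXL KO replicate 1 or 3.

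Among proteolytic ADAMs that were not called, Adam9 averaged 90.8 ± 8.19 CPM in AXL KO and 103 ± 4.75 CPM in WT. Its libraries did not overlap (log2 fold change -0.18, edgeR adjusted p = 0.127), and it was called with chromosome medians removed (-0.26, adjusted p = 0.0471). Adam12, which is raised in many tumours, averaged 58.0 ± 11.9 CPM in AXL KO and 63.7 ± 3.99 CPM in WT (edgeR adjusted p = 0.48). Adam19 averaged 11.8 ± 2.99 CPM in AXL KO and 14.9 ± 0.963 CPM in WT (log2 fold change -0.33, edgeR adjusted p = 0.15) and was called with chromosome medians removed (-0.52, adjusted p = 0.0471). Adam8, an ADAM of leukocytes, had 279, 673 and 221 counts in AXL KO and 376, 540 and 481 in WT. As for Mmp12, replicate 2 was the highest of all libraries after scaling and the other AXL KO libraries were the lowest. Its log2 fold change was -0.35 (edgeR adjusted p = 0.423), and -0.92 without AXL KO replicate 2 (edgeR adjusted p = 0.00389). Of the ADAMs that lack an active site, and act as adhesion molecules, none of the 3 tested was called by edgeR. Adam23 alone had an unadjusted p under 0.05, with a log2 fold change of -0.62 ± 0.23 SE (edgeR adjusted p = 0.0638), and was called with DESeq2 (adjusted p = 0.0284), limma-voom (adjusted p = 0.0495), no filter (adjusted p = 0.0451) and without AXL KO replicate 2. Adam11 and Adam22 had log2 fold changes of 0.41 and -0.049. Adam1a, of a group of ADAMs best known from testis, lay at -0.73 (edgeR adjusted p = 0.116) and was called without AXL KO replicate 1 (-1.11, adjusted p = 0.0461).

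The 9 proteins that carry or direct ADAM17 and ADAM10, such as iRhoms and tetraspanins, had 8 tested genes and 0 called by edgeR, DESeq2 or limma-voom, with 2 (Frmd8 and Tspan14) at an unadjusted p under 0.05 in edgeR. Frmd8, which stabilises the iRhom complex, had the smallest p (log2 fold change -0.25 ± 0.09 SE, edgeR adjusted p = 0.0675). Genes for proteins known to be shed by ADAM17 or ADAM10 moved in both directions: of 15 tested, 6 fell and 2 rose. Of all tested genes 18.3% fell and 19.1% rose. The list includes Axl, the targeted gene, and its median log2 fold change of -0.007 was the value of Axl itself. Of the 6 listed growth factors of the EGF family, Tgfa, Hbegf and Areg fell, Nrg1 rose, and Btc and Ereg were not called. Tgfa averaged 44.1 ± 4.43 CPM in AXL KO and 86.7 ± 10.3 CPM in WT (log2 fold change -0.97 ± 0.11 SE, edgeR adjusted p = 0.00032). Hbegf averaged 5.44 ± 1.54 CPM in AXL KO and 13.1 ± 0.658 CPM in WT (-1.26 ± 0.19 SE, edgeR adjusted p = 0.00131). Areg was low in both groups, at 0.187 ± 0.0242 CPM in AXL KO and 0.726 ± 0.22 CPM in WT (edgeR adjusted p = 0.00378). The chemokine gene Cx3cl1 and the TNF receptor genes Tnfrsf1a and Tnfrsf1b also fell, and Nrg1 and Notch1 rose (log2 fold change 0.62 each, edgeR adjusted p = 0.031 and 0.0301).

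The ADAMTS family had the most genes called, 10 of 15 tested, and its 3 procollagen N-propeptidases, which trim the front end of fibrillar collagen precursors, all fell. Adamts14 (chromosome 10, 61197112 to 61273438) had 64, 92 and 95 counts in AXL KO and 247, 245 and 305 in WT. Over all libraries this was the largest fold decrease of any tested member, 3.38-fold (log2 fold change -1.76 ± 0.17 SE, edgeR adjusted p = 0.000151). Without AXL KO replicate 2 it lay at -1.78, and Mmp12 (-2.44), Adamts16 (-2.31), Mmp14 (-1.93) and Mmp28 (-1.92) lay lower. Adamts3 (chromosome 5, 89677087 to 89883334), which also processes the lymphatic growth factor VEGF-C, had 698, 1031 and 672 counts in AXL KO and 1488, 1608 and 1635 in WT, 2.10-fold lower (log2 fold change -1.07 ± 0.13 SE, edgeR adjusted p = 0.000394). Adamts2 (chromosome 11, 50602084 to 50807573) had 600, 1036 and 616 counts in AXL KO and 1095, 1240 and 979 in WT. None of the 3 genes had an AXL KO library as high as any WT library in CPM. Adamts2 fell by 0.65 ± 0.17 SE on the log2 scale (edgeR adjusted p = 0.0157), and its call ended without AXL KO replicate 1 (adjusted p = 0.0612) or replicate 3 (adjusted p = 0.0574).

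Of the proteoglycan-cleaving ADAMTS genes, whose enzymes cut aggrecan or versican, 4 of 6 tested fell. Adamts9 averaged 5.68 ± 0.36 CPM in AXL KO and 8.99 ± 0.653 CPM in WT (log2 fold change -0.66 ± 0.13 SE, edgeR adjusted p = 0.00413). Adamts4 averaged 8.75 ± 1.91 CPM in AXL KO and 13.4 ± 0.872 CPM in WT (-0.61, edgeR adjusted p = 0.0161). Adamts8 averaged 5.35 ± 0.664 CPM in AXL KO and 7.55 ± 0.69 CPM in WT (-0.50, edgeR adjusted p = 0.0266). Adamts1, which also binds VEGF, averaged 11.1 ± 1.93 CPM in AXL KO and 15.4 ± 1.4 CPM in WT (-0.47, edgeR adjusted p = 0.0313). In each of these 4 genes the groups did not overlap. Adamts4 lost its call without WT replicate 3, AXL KO replicate 1 or AXL KO replicate 3 (adjusted p at most 0.0607), Adamts8 without WT replicate 3, AXL KO replicate 2 or AXL KO replicate 3 (at most 0.0983), and Adamts1 without WT replicate 1 or 2 or AXL KO replicate 1 or 3 (at most 0.108). Adamts5, an aggrecanase, averaged 7.91 ± 2.78 CPM in AXL KO and 10.7 ± 2.75 CPM in WT (-0.44, edgeR adjusted p = 0.208). Adamts15 lay at -0.40 (edgeR adjusted p = 0.128) and was called without WT replicate 3 (-0.58, adjusted p = 0.0319) and with chromosome medians removed (-0.60, adjusted p = 0.043).

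Of the other ADAMTS genes 3 of 6 tested fell, with larger errors. Adamts12 had 335, 718 and 380 counts in AXL KO and 551, 918 and 832 in WT. It was called although AXL KO replicate 2 was above WT replicate 1 (log2 fold change -0.78 ± 0.25 SE, edgeR adjusted p = 0.0352), and relative to the chromosome 15 median of -0.29 it lay at -0.49 and was not called (adjusted p = 0.166). Adamts16 had 4, 21 and 8 counts in AXL KO and 39, 30 and 19 in WT (-1.51 ± 0.49 SE, edgeR adjusted p = 0.0387). Adamts17 had 51, 103 and 61 counts in AXL KO and 131, 109 and 102 in WT (-0.77 ± 0.25 SE, edgeR adjusted p = 0.0358). These 3 calls held without AXL KO replicate 2 and ended without AXL KO replicate 1 or 3, where adjusted p-values ran up to 0.121. They also ended without WT replicate 2, and those of Adamts12 and Adamts17 without WT replicate 3 and those of Adamts16 and Adamts17 without WT replicate 1. Adamts7 and Adamts10, at 60.6 ± 6.56 and 33.3 ± 2.10 CPM in AXL KO and 53.9 ± 3.0 and 35.1 ± 1.85 CPM in WT, were the most abundant per length of exon among the ADAMTS transcripts that were not called (edgeR adjusted p = 0.192 and 0.498). Adamts6 lay at 0.035.

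**Figure D3:**
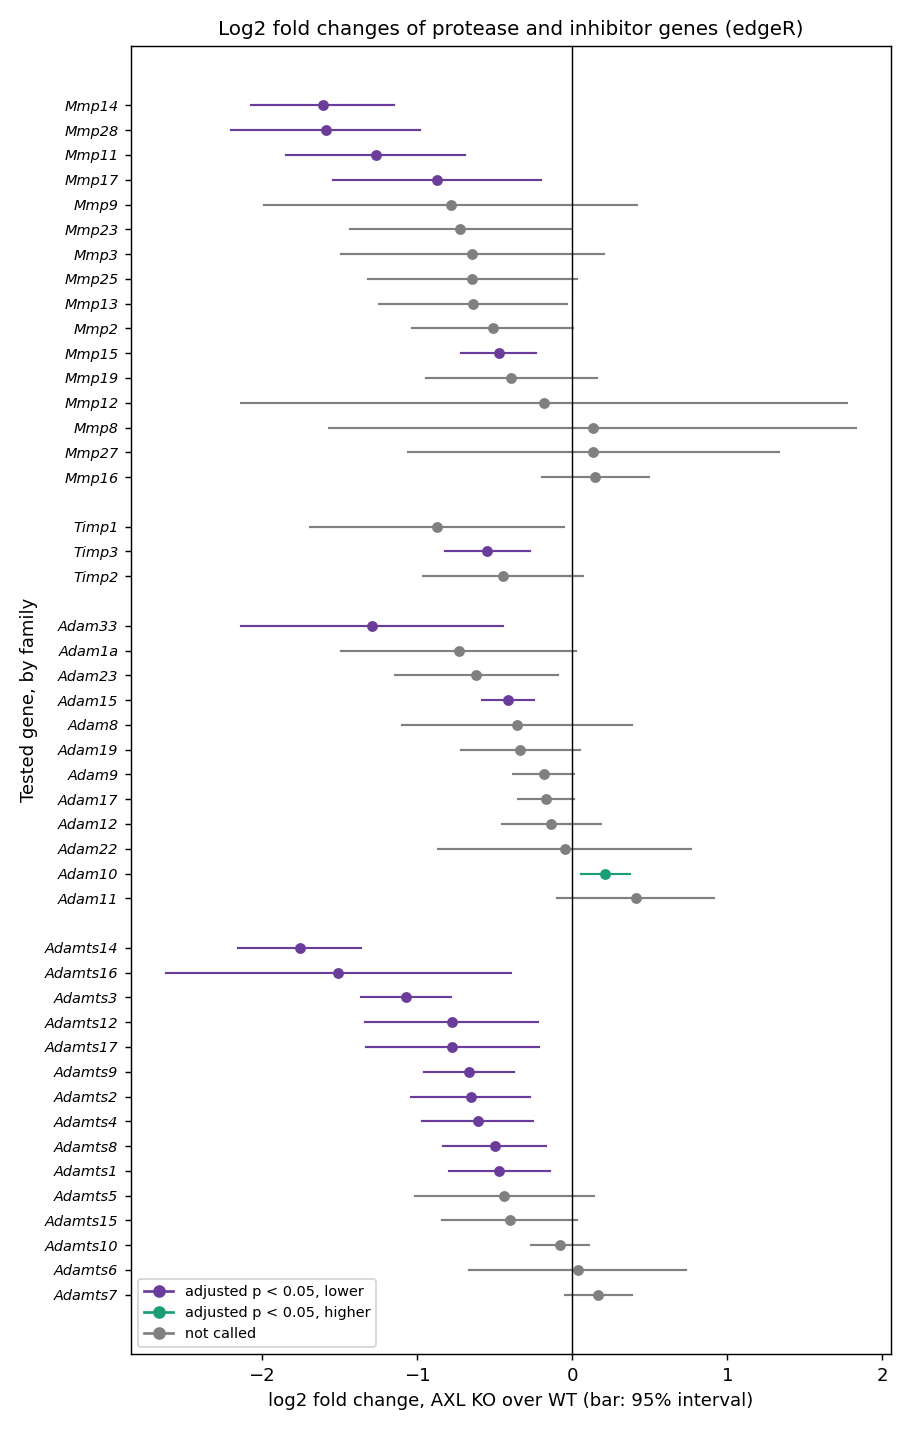
Log2 fold change of AXL KO over WT (x axis, point) with its 95% interval (bar) for the 46 tested members (y axis, by family); purple marks genes lower and green the gene higher at an edgeR adjusted p under 0.05, grey the rest. The intervals are widest for Mmp12 and Mmp8, and of the called genes 18 lie left of 0 and Adam10 right of it.

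AXL KO replicate 2 had the highest CPM of the 3 AXL KO libraries in 37 of 46 tested members (80.4%), against 37.2% of all tested genes. The median log2 ratio of members to the WT mean, with 0.5 CPM added, was -0.68 in AXL KO replicate 1, -0.15 in replicate 2 and -0.65 in replicate 3. Over all tested genes these medians were 0.006, 0.01 and -0.0003. In those 37 members, leaving out replicate 2 had to lower the AXL KO mean. The downward direction of their changes was thus fixed by the choice of library and is no separate result. Leaving out replicate 2 raised the number of members called lower to 29 and took the number called higher to 0, while 18.8% of all genes were then called lower. Of these 29, 17 were among the 18 called over all libraries, with Adamts8 lost (edgeR adjusted p = 0.065). The 12 gained were Mmp2, Mmp3, Mmp8, Mmp9, Mmp12, Mmp13, Timp1, Timp2, Adam8, Adam19, Adam23 and Adamts5. Mmp9 moved to -1.70 (edgeR adjusted p = 0.0152), Mmp3 to -1.06 (adjusted p = 0.0437) and Adamts5 to -0.76 (adjusted p = 0.0197). All 3 tested TIMPs and 11 MMPs were then called lower. Leaving out AXL KO replicate 1 or 3 instead left 11 and 9 members called lower, with 12.2% and 11.5% of all genes called lower.

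**Figure D4:**
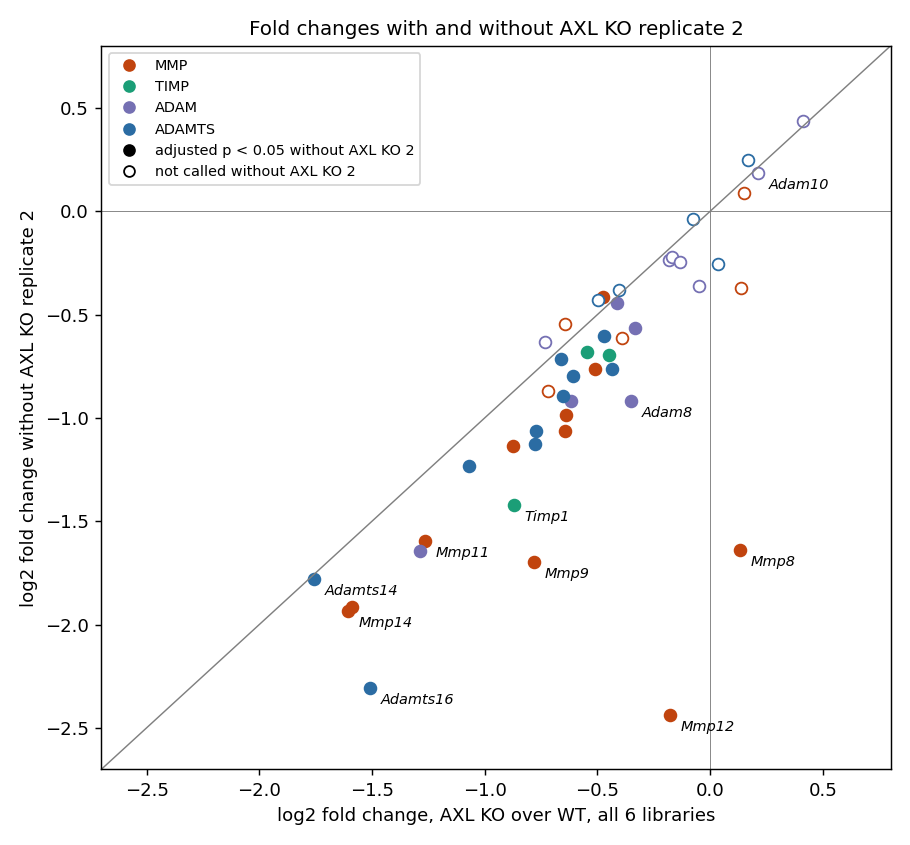
Log2 fold change of AXL KO over WT with all 6 libraries (x axis) and without AXL KO replicate 2 (y axis) for each tested member, coloured by family; filled points were called without that library and the diagonal marks equal values. Most points lie below the diagonal, with Mmp12, Mmp8 and Mmp9 farthest from it and Adamts14 close to it.

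Markers of vessel cells were mostly called lower in AXL KO. For all counts of markers here, 18.3% of all tested genes fell and 19.1% rose. The 9 endothelial markers summed to 175, 231 and 197 CPM in AXL KO and 331, 337 and 302 CPM in WT, and 8 of them fell. The 8 pericyte and smooth muscle markers summed to 275, 374 and 266 CPM in AXL KO and 525, 498 and 456 CPM in WT, and 6 fell. For 11 fibroblast markers the sums were 1488, 2420 and 1458 CPM in AXL KO and 3224, 2170 and 1936 CPM in WT, with 1 called lower, Pdgfrb, and a median log2 fold change of -0.45. AXL KO replicate 2 thus had the highest sum of its group in each of these lists, as it had for the macrophage and basal markers. Its sums were the lowest of its group for the neutrophil, luminal, and T and NK cell markers. Macrophage markers summed to 566, 653 and 496 CPM in AXL KO and 659, 523 and 490 CPM in WT, with 1 of 11 higher and 1 lower. Neutrophil markers summed to 15.3 to 18.7 CPM in AXL KO and 5.72 to 11.5 CPM in WT. Ltf led this sum in AXL KO, with means of 11.5 CPM in AXL KO and 1.96 CPM in WT. Mpo, Elane and Camp were at 0 in all libraries. Of the 11 markers 5 were tested: Ltf rose and Cxcr2 fell (log2 fold change 2.55 and -1.19). S100a8 and S100a9 lay at -0.89 and -1.55 and Csf3r at 0.33, none of them called. The sum thus does not speak for the neutrophil markers as a set. T and NK cell markers were higher in AXL KO for 9 of 10, with sums of 31.7 to 36.8 CPM in AXL KO and 9.06 to 12.6 CPM in WT. Of 7 tested luminal markers 4 fell and 1, Erbb2, rose. Their sums were 11380 to 13520 CPM in AXL KO and 11200 to 12540 CPM in WT. Erbb2 led these sums, with means of 9207 CPM in AXL KO and 7193 CPM in WT. Krt8, Krt18 and Epcam were among the markers that fell, each without overlap. Basal markers summed to 1.63 to 2.47 CPM in AXL KO and 1.3 to 2.21 CPM in WT, and neither of 2 tested was called by edgeR, DESeq2 or limma-voom or had an unadjusted p under 0.05. The part of these cell types in the protease results was not tested.

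Of 18 further activators and inhibitors of MMPs 16 were tested, of which 5 fell and 3 rose (median log2 fold change -0.38). Of all tested genes 18.3% fell and 19.1% rose. Bsg, which encodes the MMP inducer CD147, averaged 631 ± 127 CPM in AXL KO and 1435 ± 120 CPM in WT (log2 fold change -1.19 ± 0.14 SE, edgeR adjusted p = 0.000344). A2m, alpha-2-macroglobulin, a protein that traps proteases, averaged 31.8 ± 11 CPM in AXL KO and 108 ± 14.4 CPM in WT (-1.76 ± 0.21 SE, edgeR adjusted p = 0.000443). Cd63, a partner of TIMP1 at the cell surface, Serpine2, a serpin that blocks plasminogen activators, and the plasminogen activator gene Plat fell as well. Furin and Pcsk7, convertases of the kind that remove the propeptides of membrane MMPs and ADAMs, rose by 0.40 and 0.34 on the log2 scale (edgeR adjusted p = 0.00902 and 0.006). Pcsk7 lies on chromosome 9, whose median was 0.20. Cd44, a docking receptor for MMPs, rose by 0.44 (edgeR adjusted p = 0.00746). ADAMTS-like genes, whose products lack the protease domain, split evenly, with 2 of 7 higher and 2 lower. Papln averaged 1203 ± 252 CPM in AXL KO and 693 ± 150 CPM in WT (0.79, edgeR adjusted p = 0.00976), and Adamtsl2 also rose (1.39, adjusted p = 0.00437). Adamtsl5 and Adamtsl3 fell by 1.39 and 1.87 on the log2 scale (edgeR adjusted p = 0.00439 and 0.0172).

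Per length of exon, Adam10 was the most abundant transcript of all members in both groups, at 42.6 ± 2.21 CPM per kilobase in AXL KO and 36.8 ± 0.403 in WT. In AXL KO it was followed by Adam9 (22.1 ± 1.99 CPM per kilobase), Mmp15 (19.7 ± 1.42), Adam17 (15.1 ± 1.12) and Timp1 (12.3 ± 6.73). In WT the next were Mmp15 (27.4 ± 3.55 CPM per kilobase), Adam9 (25.0 ± 1.15), Timp1 (22.6 ± 8.27) and Mmp14 (18.2 ± 0.205). Adam9 and Mmp15 lay within about their SDs of each other in each group, and the Timp1 levels had the widest spread of these. Mmp14 had 5.99 CPM per kilobase in AXL KO and thus left the 5 most abundant members there.

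**Figure D5:**
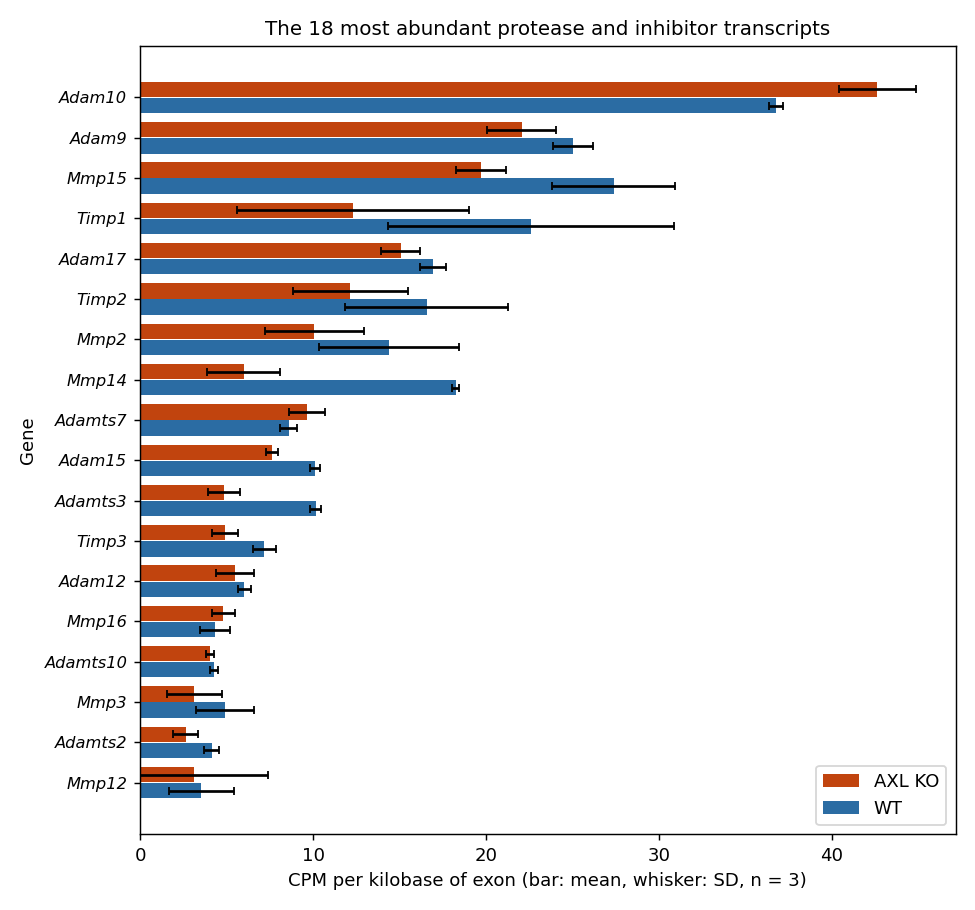
Mean CPM per kilobase of exon (x axis, from 0) with SD whiskers (n = 3) for the 18 most abundant members (y axis), AXL KO in orange above WT in blue; the Mmp12 whisker is clipped at 0. Adam10 leads in both groups and Mmp14 has the largest difference between the means, at 5.99 in AXL KO and 18.2 in WT.

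At the low end, 33 members were not tested. No count in any library was found for 16 of them, which include Mmp7, Mmp20 and 14 ADAM genes, most of them known from testis. A count of 0 allows a level of up to 0.0927 to 0.11 CPM in a library, at a floor of 3 counts that covers counting error only. The other 17 had at most 45 counts over all 6 libraries, the most in Adam4. Exon overlap limits some calls, because the use of strand in counting is not given in the sources used here: Timp3 shares 1733 exon bases with Syn3, Adam15 1263 with 4731419I09Rik and Adamts9 1381 with A730049H05Rik, each on the opposite strand, and Mmp28, Mmp11 and Adamts4 share 466, 155 and 171 with a neighbour. In the authors' deposited table, for which the submitters name DESeq2 and whose fold changes run as WT over AXL KO, 19 of 52 members with an adjusted p were lower and 1 was higher in AXL KO. The authors' deposited table and edgeR called 18 members alike, while Adam23 and Mmp2 were called in the table only and Adam33 by edgeR only.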

How the data were processed

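The 6 libraries were grouped by sample title into 3 AXL KO and 3 WT. Per the submitters' processing notes the tools were CASAVA 1.8, TopHat2 2.0.10, HTSeq 0.5.3 and DESeq2 1.4.5 with genome GRCm38; the sources used here give neither their settings nor the use of strand. The authors deposited raw counts per gene for 39179 identifiers and 5 further rows, left out of all fits, for alignments to several places (25.7% to 29%), to no gene (4.41% to 6.88%) or to several genes (0.717% to 1.09%). The deposited comparison table holds a signal per library, which equals count divided by size factor within 5.15e-10, the authors' log2 fold changes and p-values, and per the file headers a test score (stat) that was not used; the table was compared and not retested.

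Genes passed edgeR's filterByExpr (minimum count 10, total 15), which removed at most 0.0456% of a library's counts. The groups were compared with edgeR 4.0.16 (R 4.3.3): TMM factors, 0.98 to 1.02, quasi-likelihood test, group as the only term, Benjamini-Hochberg adjustment over 14850 genes, threshold 0.05. The biological coefficient of variation was 0.117. An exact permutation test of 3 against 3 libraries cannot go below p = 0.1. Replicates differed by more than sampling noise (chi-square per gene 11.7 to 31 within groups, 99.6 to 161 between). On simulated counts with a small share of genes changed, tested over the 14850 genes, the steps were checked before use. Data with as large a share of changed genes as here, or with a library like AXL KO replicate 2, were not simulated.

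Positions and exon lengths came from GENCODE M21 (GRCm38), which held 37607 identifiers, and promoters from RefSeq (GRCm38.p6). Members, role lists and markers were chosen with earlier results of these data known. Named were all called members, those not called at a mean of at least 10 CPM or called by an alternative, 4 genes of smallest p per list in part, and the 5 highest levels per kilobase. Alternatives were DESeq2 1.42.0 and its size factors, upper-quartile factors, limma-voom (limma 3.58.1), no filter, a mean log2 CPM of at least 2, a replicate block, each library left out, an adjusted p of 0.01 and a 2-fold minimum; removal of each chromosome's median was chosen after seeing the data.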

Additional observations from a re-analysis of the deposited data

How the results depend on the processing

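The count of members called lower was 12 to 20 under other scalings, tools and filters, with chromosome medians removed and with a replicate block, against 18. Of all tested genes 12.3% to 20% were called lower in these settings, and the number of tested members differed between filters. At an adjusted p of 0.01 the count was 9, with 9.86% of all genes called lower. At a 2-fold minimum it was 7, with 4.82% of all genes. Leaving out each library in turn gave 9 to 29 members lower and 0 to 1 higher, 4 to 11 MMPs, 1 to 3 TIMPs, 1 to 5 ADAMs and 3 to 10 ADAMTS genes lower, 0 to 1 ADAM higher, 2000 to 2846 of all genes higher and 1733 to 2828 lower. No member, and so no ADAM, was called higher (0) with upper-quartile factors, no filter, the replicate block, chromosome medians removed or an adjusted p of 0.01, nor any member at 2-fold. TIMPs called lower were 2 with no filter and 0 with chromosome medians removed; MMPs were 2 and ADAMs 1 at a mean log2 CPM of at least 2; ADAMs were 4 with chromosome medians removed, 1 with the block and 1 at 0.01, where ADAMTS genes were 3 and all genes 1610 higher and 1464 lower. The median log2 fold change of members stayed between -0.74 and -0.43.

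Apart from the 2-fold minimum, 8 of the 19 calls held in every alternative that tested the gene: Adam15, Adamts14, Adamts3, Adamts9, Mmp11, Mmp14, Mmp15 and Mmp28. Of these Adam15, Adamts9 and Mmp15 differed by less than 2-fold, and Mmp11 and Mmp28 were not tested at a mean log2 CPM of at least 2. None of the called members changed sign. Signs turned in 10 uncalled members. With chromosome medians removed, Mmp8 lay at -0.066, Adamts10 at 0.18, Mmp16 at -0.13, Adamts7 at -0.030, Adamts6 at -0.11, Adam17 at 0.050 and Mmp27 at -0.062; with limma-voom Adamts6 lay at -0.014 and Mmp8 at -0.55. Over the left-out libraries Adam12 ran from -0.25 to 0.026, Adam22 from -0.36 to 0.17, Adamts6 from -0.26 to 0.28, Mmp12 from -2.44 to 0.32, Mmp27 from -0.37 to 0.82 and Mmp8 from -1.64 to 0.63. The cause was not tested.

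The replicate numbers did not pair the libraries: deviations of same-numbered libraries correlated at -0.058, -0.125 and 0.088, and no library correlated best with its own number. With the replicate block 15 members were called lower and 0 higher, where 16% of all tested genes were lower and 16.6% higher, and Mmp8 lay at -0.19. The block ended the calls of Adam10, Adam33, Mmp17, Adamts16 and Adamts17 (edgeR adjusted p = 0.0559 to 0.0764) and added Mmp13 (adjusted p = 0.0402).

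Depth limits the low genes: Adam33, Adamts16, Mmp17, Mmp8, Adam1a, Adam22, Adamts6 and Mmp27 rest on fewer than 60 counts per library. Adam33, Adamts16 and Mmp17 among them were called.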
